A study of Mus musculus with 29 samples.

Results

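miR-204-5p and miR-211-5p (mmu-miR-204-5p and mmu-miR-211-5p in the table) are sister microRNAs (miRNAs), a class of short RNA that silences messenger RNAs by base pairing. They were taken by name, as 2 of the 1183 miRNAs of the deposited table, for their shared seed and their related host genes. The pair was also selected on serum values of these libraries, above all the contrast of old with young serum for miR-211-5p. Values of the pair in serum are therefore given as a description without a test, and tests of the pair are kept to muscle.

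Small RNA was sequenced in 29 libraries from C57BL/6 mice, in 6 groups. Old serum (4 libraries) and old muscle (5) came from 24-month-old mice labelled as controls. Disuse serum (5) and disuse muscle (5) came from 6-month-old mice of a disuse model of muscle wasting; the sources used here state neither its method nor its length. Young serum (5) and young muscle (5) came from 6-month-old control mice. The muscle is the tibialis anterior of the lower leg. In such bulk RNA, fewer cells of a type and less RNA per cell cannot be told apart. No label states whether numbered samples are separate animals, so p-values cover the spread between samples alone, and that spread may be technical.

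miR-204 lies within Trpm3 and miR-211 within Trpm1, genes for 2 related cation channels. miR-204 is known from the retinal pigment epithelium, the choroid plexus and mesenchymal cells, where the family represses Runx2, the master transcription factor of bone formation. miR-211 is known from pigment cells: in human melanocytic cells it is made together with TRPM1 under the pigment cell factor MITF. A miRNA finds its targets mainly through its seed, bases 2 to 8 from the 5′ end, so miRNAs with a single seed can share targets.

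Both mature sequences were found in RefSeq (build GRCm38.p6) and are shown to let them be compared base by base. Capitals mark the seed.
miR-204-5p: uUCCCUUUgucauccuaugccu
miR-211-5p: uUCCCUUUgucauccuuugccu
They are 22 bases long and identical at 21, with the single substitution A17U, where miR-204-5p has the base written first and position 17 is counted from the 5′ end. The first 16 bases, the seed among them, are the same, and both would pair through the seed with AAAGGGA in a target. How reads with a mismatch, or reads that end before base 17, were assigned between the pair is not stated in the labels or the table. The pair is therefore also given as a sum.

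The precursor hairpins, with the counted 5′ arm in capitals, show where that arm sits in each.
Mir204: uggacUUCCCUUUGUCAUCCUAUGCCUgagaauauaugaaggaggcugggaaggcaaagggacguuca
Mir211: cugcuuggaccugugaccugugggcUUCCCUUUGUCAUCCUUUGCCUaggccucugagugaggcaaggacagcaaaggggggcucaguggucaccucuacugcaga
Mir204 occupies chr19:22750605-22750672 and Mir211 chr7:64205806-64205911 (GRCm38, both on the + strand). In the GENCODE M21 annotation of GRCm38, each lies within its host (Trpm3 at chr19:22139046-22995410 and Trpm1 at chr7:64153835-64269775, both +) and overlaps 0 host exons. Mir204 thus lies in an intron, 760 bases from the nearest upstream Trpm3 exon, and Mir211 in an intron, 1213 bases from the nearest upstream Trpm1 exon. Host messenger RNAs were not measured.

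The opposite arms were nearly absent. miR-211-3p had 5 counts in all 29 libraries, 4 in serum and 1 in muscle, against 572 for miR-211-5p. miR-204-3p had 3 counts against 16132 for miR-204-5p, on an incomplete line of the table whose columns cannot be assigned with certainty. Another mouse miRNA with the same bases 2 to 8, miR-7670-3p, had 2 counts, also on an incomplete line. The seed's counts in these libraries were thus those of miR-204-5p and miR-211-5p.

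Total counts per library were 45176 to 309133 in serum and 254624 to 5943445 in muscle. Young muscle libraries were the shallowest muscle group, with a median of 535754 counts against 2825032 in old and 2298437 in disuse muscle. The muscle label fits its markers, since the 5 muscle miRNAs miR-133a-3p, miR-133b-3p, miR-1a-3p, miR-206-3p and miR-499-5p summed to at least 377018 CPM (counts scaled to a library total of 1000000) in every muscle library and at most 4654 CPM in any serum library. Serum held the red cell miRNAs (miR-451a, miR-144-3p and miR-144-5p, at least 4150 CPM in sum) and the hepatocyte miRNA miR-122-5p (at least 202 CPM). A count of 0 allows up to 3 counts, which is 9.70 to 66.4 CPM in serum and 0.505 to 11.8 CPM in muscle. Such limits and all intervals hold for counting error alone, because amplified reads that carry no molecular identifier need not be separate molecules.

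In muscle, miR-204-5p was a moderately abundant and steady miRNA, ranked 70th to 81st by counts in every library. Its levels were 537, 419, 481, 452 and 342 CPM in old muscle 1 to 5, 473, 426, 389, 459 and 346 CPM in disuse muscle 1 to 5, and 298, 308, 365, 465 and 429 CPM in young muscle 1 to 5. The 3 groups overlapped, with all 15 values between 298 and 537 CPM. The group means were 446 ± 72.7 CPM in old, 419 ± 52.3 CPM in disuse and 373 ± 73.3 CPM in young muscle (SD, n = 5 each).

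miR-211-5p was far scarcer in muscle. Old muscle 1 to 5 had 71, 20, 34, 17 and 19 counts, or 11.9, 9.97, 12.0, 12.6 and 5.69 CPM. Disuse muscle 1 to 5 had 16, 48, 2, 14 and 24 counts, or 7.40, 9.95, 7.85, 6.09 and 9.10 CPM. Young muscle 1 to 5 had 0, 4, 3, 2 and 23 counts. In young muscle that is 0 to 8.88 CPM, with young muscle 5 the highest, and 4 of its 5 libraries were at levels where the counting interval is wide: young muscle 3, with 3 counts, has a 95% Wilson interval of 2.09 to 18.1 CPM. Every old and every disuse library lay above the young median, but the young range overlapped both.

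**Figure D1:**
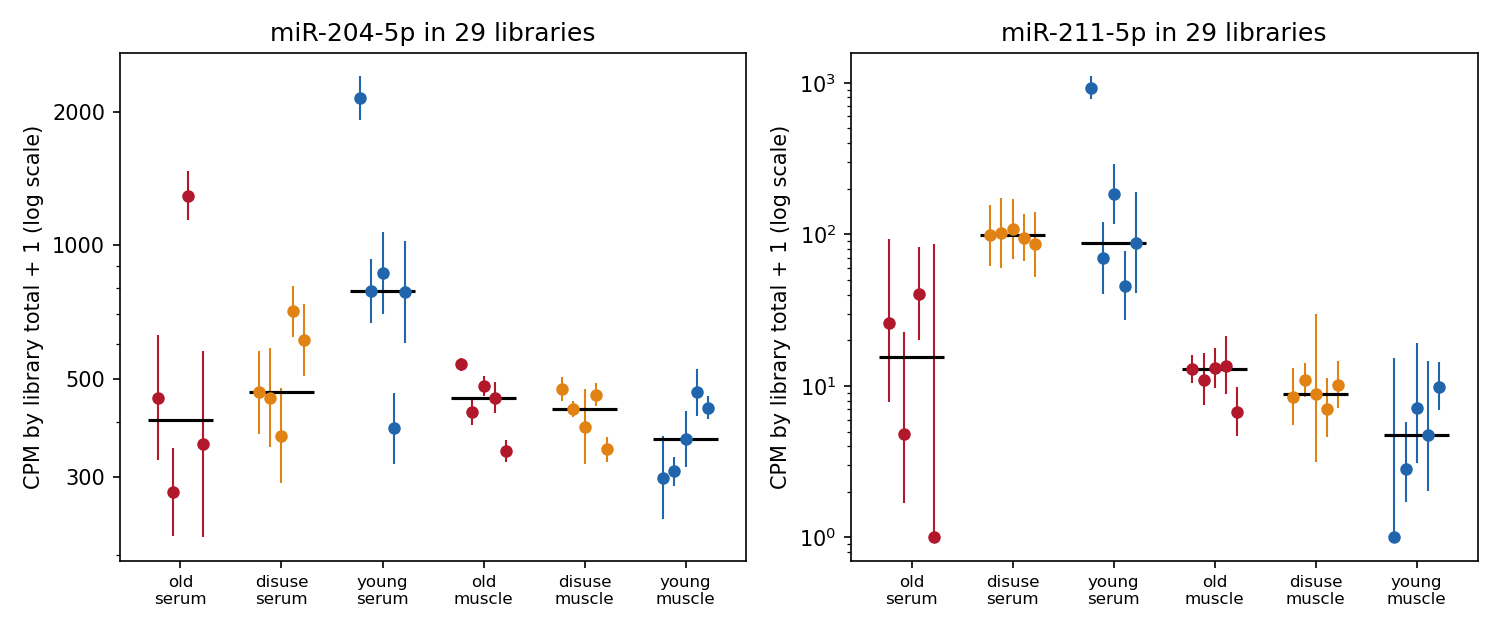
Levels of miR-204-5p (left) and miR-211-5p (right) in each of 29 libraries, as CPM by library total plus 1 on a log scale, with 95% Wilson intervals and the group median as a black line. miR-204-5p lies between 276 and 2147 CPM throughout, whereas miR-211-5p is at 44.7 to 928 CPM in disuse and young serum, and at 0 to 39.6 CPM in old serum and in muscle.

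Neither miRNA passed the test between old and young muscle. Relative to young muscle, miR-204-5p had a log2 fold change of 0.25 ± 0.18 (SE) in old muscle, with adjusted p = 0.456 in edgeR's quasi-likelihood test over 341 miRNAs. miR-211-5p had a log2 fold change of 1.01 ± 0.41 in old muscle, a fold of 2.01, with unadjusted p = 0.0224 and adjusted p = 0.134 (edgeR). So 0 of 2 passed, and 1 of 2 had an unadjusted p under 0.05, where 5.87% of all tested miRNAs passed, 21.4% had an unadjusted p under 0.05 and 3.52% did not overlap between the groups. limma-voom passed 0 of 2 (miR-211-5p at adjusted p = 0.0729) and 7.04% of all, and DESeq2 passed 0, giving no adjusted p for miR-211-5p. The value for miR-211-5p depended on 1 library, young muscle 5, which has the most counts of it in the young group and is its deepest library (2588831 counts in total). Without young muscle 5 the value was 1.91 with adjusted p = 0.0200 (edgeR). The miRNA was then past the threshold, in a fit whose young libraries had 0, 4, 3 and 2 counts of it.

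Between disuse and young muscle the pattern was the same in size order but smaller. miR-204-5p had a log2 fold change of 0.24 ± 0.18 (edgeR adjusted p = 0.730) and miR-211-5p of 0.78 ± 0.43 (edgeR adjusted p = 0.641). Here 0 of 2 passed in edgeR, limma-voom and DESeq2, and 0 had an unadjusted p under 0.05, where 0.293% of the 341 tested miRNAs passed in edgeR, 8.5% had an unadjusted p under 0.05 and 2.35% did not overlap. Both comparisons share the 5 young libraries. For miR-211-5p the value ran between 0.44 and 1.67 as single libraries were left out, the highest again without young muscle 5.

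Old over disuse muscle gave the smallest fold changes of the 3 muscle comparisons, a difference that was not tested. The log2 fold change of old over disuse muscle was 0.01 ± 0.18 for miR-204-5p (edgeR adjusted p = 0.987) and 0.23 ± 0.35 for miR-211-5p (edgeR adjusted p = 0.801). By all 3 tools 0 of 2 passed and 0 had an unadjusted edgeR p under 0.05, against 3.52% of all miRNAs past the threshold in edgeR, 14.1% under an unadjusted p of 0.05 and 6.45% not overlapping. The sign for miR-204-5p was negative with upper-quartile factors and with limma-voom. These groups differ in age as well as in disuse, which cannot be told apart.

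In serum, miR-204-5p was counted at about the level of muscle or above it. Old serum 1 to 4 had 36, 72, 229 and 16 counts, or 452, 276, 1294 and 354 CPM. Disuse serum 1 to 5 had 465, 452, 371, 708 and 610 CPM. Young serum 1 to 5 had 2147, 787, 865, 385 and 785 CPM. Old serum 3 and young serum 1 stood above the rest of their groups, and the 3 serum groups overlapped. Means were 594 ± 472 CPM in old (SD, n = 4), 521 ± 136 CPM in disuse and 994 ± 672 CPM in young serum (n = 5 each). Without old serum 3 the old mean was 361 ± 88.1 CPM, and without young serum 1 the young mean was 705 ± 217 CPM.

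miR-211-5p separated the serum groups in another way. Old serum 1 to 4 had 2, 1, 7 and 0 counts, or 25.1, 3.84, 39.6 and 0 CPM. Disuse serum 1 to 5 had 17, 13, 18, 29 and 15 counts, or 97.5, 101, 108, 93.8 and 84.7 CPM. Young serum 1 to 5 had 124, 12, 18, 13 and 6 counts, or 928, 68.4, 183, 44.7 and 87.2 CPM. By library totals, disuse serum had the smallest coefficient of variation of the 6 groups, 8.83% against 143% in young serum. It is not read as a tight group, because its libraries held 13 to 29 counts. The counting interval of disuse serum 2, 59.3 to 173 CPM, covers all the disuse values. With TMM factors in place of library totals, disuse serum was at 97.5 ± 21.6 CPM (SD, n = 5), so the spread depended on the scaling. Without young serum 1, young serum was at 95.9 ± 60.7 CPM by library totals (SD, n = 4). Old serum lay below every disuse and every young library. The 0 of old serum 4, the shallowest library, allows up to 66.4 CPM, above the 44.7 CPM counted in young serum 4. The interval of young serum 4, the lowest young library, was 26.1 to 76.5 CPM and overlapped that of old serum 3, at 19.2 to 81.7 CPM.

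As a description without a test, the fitted log2 fold change of miR-211-5p in old over young serum was -3.53 ± 0.81 (SE), and -2.19 without young serum 1. The groups did not overlap (10.3% of the 165 fitted miRNAs did not overlap between them). For disuse over young serum it was -1.19 ± 0.57, and 0.14 without young serum 1, so a single library set its direction. For old over disuse serum, where young serum 1 is in neither group, it was -2.34 ± 0.83. Here too the groups did not overlap, as for 8.48% of fitted miRNAs, and leaving out single libraries gave -3.24 (without old serum 3) to -1.92.

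For miR-204-5p the same description gave -0.66 ± 0.36 in old over young serum, -0.84 ± 0.34 in disuse over young serum, and 0.18 ± 0.36 in old over disuse serum. In all 3 the groups overlapped, as they did for all but 2.42% of fitted miRNAs between disuse and young serum. The last value was -0.43 without old serum 3, so its direction rested on that library. These comparisons share libraries by pairs, and none is independent of the choice of the pair.

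miR-211-5p was counted at higher levels in serum than in muscle of the disuse mice, a comparison that is also a description, since serum values chose the pair. It averaged 97.0 ± 8.56 CPM in disuse serum and 8.08 ± 1.5 CPM in disuse muscle (SD, n = 5 each), and all 5 serum libraries lay above all 5 muscle libraries. The fitted log2 fold change was 2.99 ± 0.24 (SE), or 7.96-fold, where the median of the 192 fitted miRNAs was -0.36. At its low level in disuse muscle miR-211-5p passed the filter through serum, so the filter set its direction, and the median does not correct for that. miR-204-5p averaged 521 ± 136 CPM in disuse serum and 419 ± 52.3 CPM in disuse muscle, with a fitted log2 fold change of -0.17 ± 0.18; its sign was positive with library totals (0.32) and DESeq2 factors (0.036). Serum and muscle differ in most miRNAs: 86.5% of all passed edgeR's test (38% higher and 48.4% lower in serum), and 77.6% did not overlap between the groups. RNA was extracted differently from serum and muscle and input differed, in every library, which cannot be told apart from the source.

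As a description, young serum over young muscle gave log2 fold changes of 4.77 ± 0.70 for miR-211-5p and 0.74 ± 0.34 for miR-204-5p. The median of the 190 miRNAs fitted there was -0.34. Without young serum 1 the value for miR-211-5p was 3.57. At 0 to 8.88 CPM in young muscle, miR-211-5p passed the filter through serum here too, so the filter set its direction. The serum and muscle libraries of young mice did not overlap for miR-211-5p, as for 63.2% of fitted miRNAs. In old mice the 2 sources overlapped for both, while 63.6% of fitted miRNAs did not overlap. In the old mice both were near 0, at 0.43 ± 0.59 for miR-211-5p, 17.1 ± 18.6 CPM in old serum (n = 4) and 10.4 ± 2.84 CPM in old muscle (n = 5), and -0.01 ± 0.33 for miR-204-5p. The median of the 316 miRNAs fitted in the old mice was -0.87, so the young and old values have unlike baselines.

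**Figure D2:**
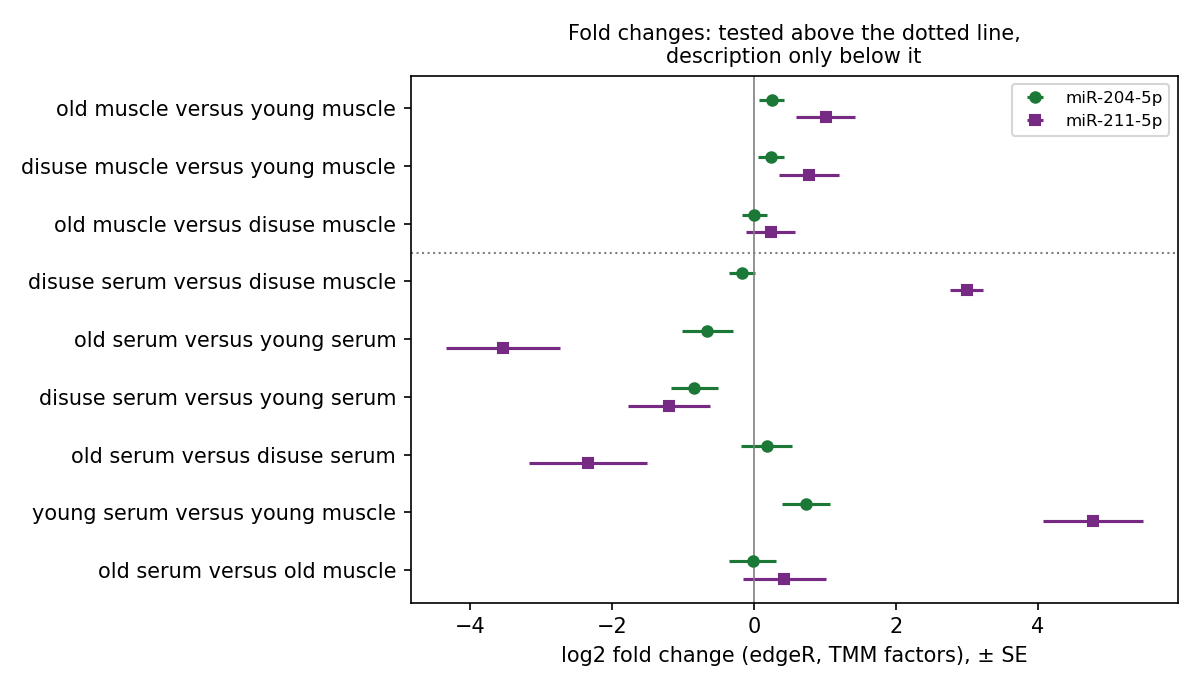
Log2 fold changes of miR-204-5p (circles) and miR-211-5p (squares) with their SE, from edgeR with TMM factors. Above the dotted line are the 3 tested muscle comparisons, where neither miRNA passed; in the untested comparisons with serum below it miR-211-5p lies farther from 0 than miR-204-5p, from -3.53 for old over young serum to 4.77 for young serum over young muscle.

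Over the 6 groups the order of mean levels of miR-204-5p was young serum, old serum, disuse serum, old muscle, disuse muscle and young muscle, and each neighbour in that order differed by less than the larger of their SDs. For miR-211-5p the order was young serum, disuse serum, old serum, old muscle, disuse muscle and young muscle. There the step between disuse and old serum was larger than their SDs and their ranges did not overlap. The step between disuse and young muscle exceeded the larger SD with overlapping ranges, and the others were within it. The sum of the pair was 611 ± 488, 618 ± 129 and 1256 ± 1042 CPM in old, disuse and young serum, and 457 ± 75.2, 427 ± 51.5 and 377 ± 75.6 CPM in old, disuse and young muscle.

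The share of miR-211-5p among the counts of the pair does not depend on library scaling. In old serum 1 to 4 it was 5.26%, 1.37%, 2.97% and 0%. In disuse serum 1 to 5 it was 17.3%, 18.3%, 22.5%, 11.7% and 12.2%, and in young serum 1 to 5 it was 30.2%, 8.0%, 17.5%, 10.4% and 10.0%. The muscle shares were 1.64% to 2.71% in old, 1.31% to 2.57% in disuse and 0% to 2.03% in young muscle. Old serum thus overlapped muscle, while all 10 disuse and young serum libraries lay above all 15 muscle libraries. Old serum shares rest on 16 to 236 counts: the 0% of old serum 4, at 0 of 16 counts, allows up to 18.8%, and its 95% Wilson interval reaches 19.4%. The interval of young serum 1 was 25.9% to 34.8%, above that of every other library except those of disuse serum 1, 2 and 3 and young serum 3.

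**Figure D3:**
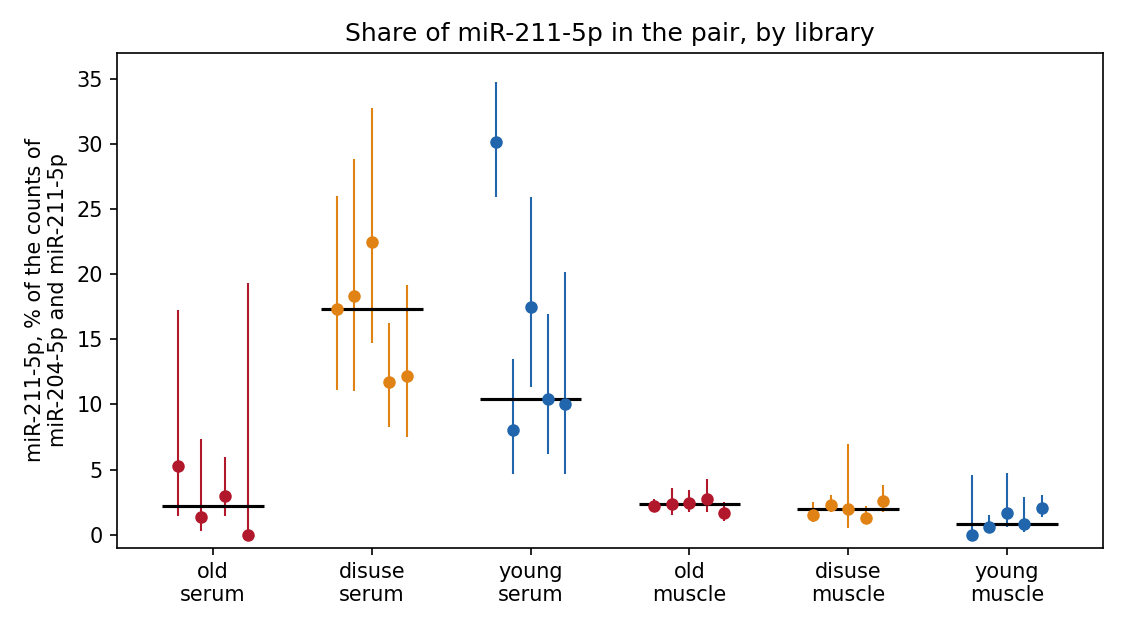
miR-211-5p as a percentage of the summed counts of miR-204-5p and miR-211-5p in each library, with 95% Wilson intervals and the group median as a black line. Disuse and young serum lie at 8.0% to 30.2%, and old serum and all muscle libraries at 0% to 5.26%.

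The share averaged 16.4% ± 4.52 in disuse serum and 1.94% ± 0.517 in disuse muscle (SD, n = 5 each), a difference of 14.5 percentage points, given as a description. Between muscle groups it was tested, after the values were seen. It was 2.26% ± 0.399 in old and 1.02% ± 0.821 in young muscle (SD, n = 5 each), with 4 of 5 old libraries above every young library (two-sided exact permutation p = 0.0238). Adjusted over the 3 muscle comparisons this p was 0.0714 and did not pass. The shares of disuse and young muscle (1.94% against 1.02%, exact permutation p = 0.0794, adjusted p = 0.119) and of old and disuse muscle (2.26% against 1.94%, exact permutation p = 0.294, adjusted p = 0.294) did not pass either. The smallest p that 5 against 5 allows is 0.00794.

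Young serum 1 stood apart in other miRNAs as well, of the eye and of other lineages. Of the 7 listed miRNAs of eye, pigment cells and choroid plexus, 6 were higher in young serum 1 than in the other 13 serum libraries. The share of all miRNAs that were highest in this library was not counted. Listed miRNAs of other lineages were highest there as well, among them miR-451a, miR-144-5p, miR-142-3p, miR-338-3p and others given below. The count is therefore not read as particular to this list. The retinal cluster miR-182-5p, miR-183-5p and miR-96-5p, abundant in photoreceptors, was at 37805, 21862 and 314 CPM there, against at most 5224, 7238 and 88.5 CPM elsewhere in serum. miR-124-3p, a miRNA of neurons, had 152 counts in young serum 1 (1137 CPM) and 3 counts in all other serum libraries together. miR-9-5p, a miRNA of neural progenitors and retina, had 12 counts there and 0 in the other 13. miR-31-5p was at 247 CPM, against at most 175 CPM elsewhere. The exception, miR-184-3p of the cornea and lens, was at 12973 CPM and ranked 7th of 14.

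The same library was also high in some other markers. Its red cell miRNAs summed to 25311 CPM, against 4150 to 14792 CPM in the other serum libraries. Its muscle miRNAs summed to 4654 CPM, nearly all of it miR-133a-3p, against 636 to 3619 CPM. Other muscle miRNAs were not high there: miR-1a-3p ranked 12th of 14 with 0 counts, miR-206-3p 11th with 0 and miR-133b-3p 11th with 1. miR-499-5p had 1 count there and 0 in the other serum libraries. The skin and epithelial markers (miR-205-5p, miR-203-3p and miR-200c-3p) summed to 6015 CPM, ranking 2nd of 14. Of the other listed miRNAs of these lineages, the epithelial miR-200b-3p, miR-141-3p and miR-429-3p (1279, 3434 and 988 CPM) and miR-148a-3p of the Mitf and melanocyte list (21540 CPM) were the highest of 14 in young serum 1, and miR-200a-3p (352 CPM) ranked 2nd. The liver marker miR-122-5p was the lowest of all, at 202 CPM. The leukocyte markers (miR-142-3p, miR-223-3p and miR-150-5p) ranked 6th, and miR-126a-3p and miR-191-5p together were the lowest. The part of any of these in the level of miR-211-5p was not tested.

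**Figure D4:**
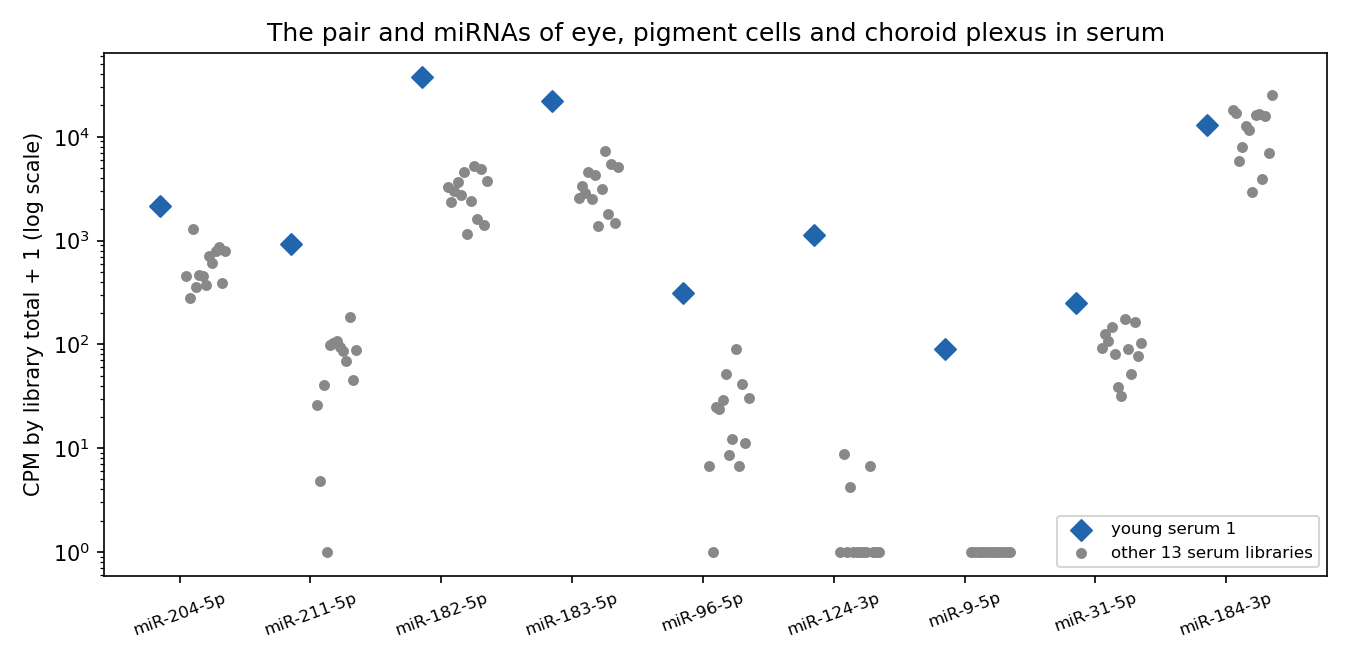
miR-204-5p, miR-211-5p and the 7 listed miRNAs of eye, pigment cells and choroid plexus in young serum 1 (diamonds) and in the other 13 serum libraries (dots), as CPM by library total plus 1 on a log scale. Young serum 1 is the highest for all but miR-184-3p, and miR-9-5p has counts in no other serum library. Listed miRNAs of other lineages were highest there as well, and the share of all miRNAs was not counted.

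The red cell miRNAs, taken as a sum, also differed between serum groups. They summed to 4150 to 8347 CPM in old serum, 8579 to 12804 CPM in disuse serum and 7661 to 25311 CPM in young serum. In this sum old serum thus lay below disuse serum and overlapped young serum. Most of the sum was miR-451a, at 4058 to 8138 CPM in old serum and 8259 to 12389 CPM in disuse serum. The other red cell miRNAs, miR-144-3p and miR-144-5p, overlapped between old and disuse serum. Taken singly, 8.48% of the 165 fitted miRNAs did not overlap between old and disuse serum. The miRNAs whose levels followed miR-211-5p most closely over the 14 serum libraries were miR-451a of red cell precursors (Spearman rho = 0.85), miR-410-3p of the imprinted Dlk1-Dio3 region (0.77) and miR-16-5p, abundant in red cells (0.75), of 265 candidates with at least 10 CPM on average. Their part in the result was not tested. For miR-204-5p the closest in serum were miR-676-3p (0.74), miR-199a-5p (0.72) and miR-98-5p (0.72), and its rho with miR-211-5p was 0.48.

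In the 15 muscle libraries, the closest to miR-204-5p were miR-128-3p (rho = 0.89), let-7i-5p (0.77) and miR-425-5p (0.72) of 268 candidates. Those closest to miR-211-5p were miR-26b-5p (0.83), miR-128-3p (0.77) and miR-29a-3p (0.76), and the rho of the pair was 0.69. These are descriptions over libraries that share their groups and depths, with no p-value, and those of miR-211-5p rest on few counts in young muscle.

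miRNAs known from the same tissues as the pair were set beside it. In disuse serum over disuse muscle, the 4 tested miRNAs of the eye, pigment cell and choroid plexus list were higher in serum. Their median log2 fold change was 7.77, from 2.42 for miR-31-5p to 10.03 for miR-184-3p. For all tested miRNAs the median was -0.36, and 38% rose and 48.4% fell. The 4 averaged 8.74 to 15.9 CPM in disuse muscle and passed the filter through serum, so they could only come out higher. Untested were miR-96-5p (16.1 CPM on average in disuse serum, 0 CPM in disuse muscle), miR-124-3p (2.21 and 0.0759 CPM) and miR-9-5p. The last went the other way, at 0 and 10.5 CPM. The 7 skin and epithelial miRNAs were also higher in serum, with a median of 9.94, as was the islet miRNA miR-375-3p (8.21). In disuse muscle the 7 averaged 0 to 7.34 CPM, and miR-375-3p 2.29 CPM. These too passed the filter through serum, so it set their direction, and the 38% does not correct for that. Of the list for Mitf and melanocytes, both miR-148a-3p (4.03) and miR-182-5p (7.58) rose. Of the Runx2-targeting list, miR-23a-3p rose by 1.53, while the muscle miRNA miR-133a-3p (-8.14) and miR-338-3p (-0.91) fell. All had edgeR adjusted p-values of at most 0.00768, which are no separate support for miRNAs that passed the filter through serum. The fold of miR-211-5p was smaller than those of the epithelial miRNAs, a difference that was not tested.

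Within muscle 0 members of these lists passed in edgeR. In old over young muscle the eye, pigment cell and choroid plexus list had a median log2 fold change of 0.42 (5 tested), against -0.01 for all miRNAs, and 2 of 5 had an unadjusted p under 0.05, miR-182-5p and miR-31-5p, as did 21.4% of all miRNAs. limma-voom passed 1 of the 5, against 7.04% of all, and DESeq2 passed 0. In disuse over young muscle its median was -0.06, with 1 of 5 under an unadjusted p of 0.05 (miR-31-5p), against 8.5% of all. In old over disuse muscle it was 0.52, with 2 of 5 (miR-182-5p and miR-183-5p), against 14.1% of all; limma-voom and DESeq2 passed 0 in both. miR-96-5p had 0 counts in muscle. In the Runx2-targeting list 4 were tested, with medians of 0.34, 0.02 and 0.37 in the same order, 1 unadjusted p under 0.05 (miR-338-3p in old over disuse muscle, which DESeq2 passed, as it did 4.11% of all, and limma-voom did not). miR-203-3p was the single skin and epithelial member tested in muscle, at -0.17, -0.47 and 0.30, with 0 passing by the 3 tools, DESeq2 giving no adjusted p in old over young muscle. Of the list for Mitf and melanocytes 2 were tested, miR-148a-3p and miR-182-5p; edgeR passed 0, with miR-182-5p under an unadjusted p of 0.05 in old over young and old over disuse muscle, and limma-voom passed 1 in old over young muscle. The islet miRNAs were too low to be tested in muscle.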

How the data were processed

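Counts of reads per mature miRNA in 29 small RNA libraries were deposited by the authors as a single table without normalization. Trizol was used for muscle RNA and a serum and plasma kit for serum RNA, before amplified TruSeq small RNA libraries, per the labels' protocols. Per the submitters' processing notes, Bowtie and build mm10 were used; neither its version nor the annotation or mismatch rule is stated. Of 1183 miRNAs, 695 have a value for each library and were used. The other 488 have 28 values; their column assignment is uncertain, and they hold 0.0518% of muscle counts. Read from the left, they leave the last deposited column empty, so its unit was recorded as other, though its values are counts. Read from the right, their counts per library followed the depth of the muscle libraries (r = 0.957 on log values, against -0.16 from the left). The 0.0518% uses the reading from the right. The share of the pair was tested by an exact permutation test, two-sided, chosen after its values were seen. A test of the pair in disuse serum against disuse muscle was planned and run, and is given without its p because serum values chose the pair. All 29 columns matched a title, and 0 columns had no sample.

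Levels are CPM by library total. Fold changes came from edgeR 4.0.16 in R 4.3.3 (glmQLFit, glmQLFTest, TMM factors, filterByExpr, Benjamini-Hochberg adjustment over all tested miRNAs, threshold 0.05). The 15 muscle libraries were fitted together, as were the 14 serum libraries, and serum was set against muscle over the libraries of each pair of groups. The SE is the log2 fold change divided by the square root of F. Alternatives used DESeq2 1.42.0, limma 3.58.1, other factors, filters, thinned libraries, a replicate block and leaving out libraries. The fit was tested on simulated data. No 2 libraries looked like a single one: over 56 pairs within groups, chi-square divided by its degrees of freedom was 13.4 or more.

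The members and lists were chosen with earlier results of these data known. Named are the pair, miRNAs of its arms and seed, the listed miRNAs, and the 3 most alike per source by Spearman rho of log2 CPM (TMM, prior count 2). The lists were: opposite arms, eye with pigment cells and choroid plexus, Mitf and melanocytes, skin and epithelium, endocrine pancreas, and Runx2-targeting miRNAs.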

Additional observations from a re-analysis of the deposited data

Results flagged for a closer look

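Of 18 groups of values examined (both miRNAs and their share in 6 groups), 2 held a library far from the others by Dixon's criterion, which chance flags in about 1 in 20 groups. Both were young serum 1. It had 2147 CPM of miR-204-5p, against 385 to 865 CPM in the other 4 young serum libraries, and its gap was 0.728 of the range, against a critical value of 0.71. It had 928 CPM of miR-211-5p, against 44.7 to 183 CPM in the other 4, with a gap of 0.843 of the range. The gap of old serum 3 for miR-204-5p, at 1294 CPM, was 0.827 of the range and just under the critical value of 0.829 for 4 libraries.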

How the results depend on the processing

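Of 26 results, the fold changes of miR-211-5p kept their direction in all settings in which they could be fitted, leaving out libraries aside. They had no value with a filter of 10 CPM in the 3 muscle comparisons. With thinned libraries they had one in disuse serum over disuse muscle alone, and elsewhere the miRNA fell below the filter. Old over young serum lacked a further value, with 9 alternative settings fitted against 10 in each of the other 2 serum comparisons. Disuse serum over disuse muscle, where the main filter set the direction, was 2.89 to 3.52. Old over young muscle stayed short of the threshold (0.80 to 1.27, adjusted p = 0.0729 to 0.259, edgeR, limma-voom or DESeq2 where it gave one). Leaving out single libraries gave 0.74 to 1.91 there, with only the fit without young muscle 5 past the threshold. miR-204-5p was near 0 and changed sign: for old over disuse muscle it was -0.016 with upper-quartile factors, -0.0070 with limma-voom and -0.11 to 0.12 on leaving out single libraries. For disuse serum over disuse muscle it was 0.036 with DESeq2 size factors, 0.039 with the DESeq2 test, 0.32 with library totals, 0.061 with a filter of 10 CPM, 0.39 with libraries thinned to the shallowest, 0.056 for the pair summed, and -0.19 to 0.015 on leaving out single libraries. The cause was not tested.

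The number of miRNAs past the threshold between old and young muscle was 20, against 36 with upper-quartile factors and 9 thinned. Between disuse and young muscle it was 1, against 2 with upper-quartile factors, no filter, only these groups or short lines read from the right, 0 with a filter of 10 CPM, limma-voom, thinning or the replicate block, and 0 to 2 on leaving out single libraries. Between disuse serum and muscle it was 166, against 327 with no filter.

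Among the untested serum values, leaving out single libraries gave, for miR-211-5p, -4.43 to -2.19 (old over young), -1.45 to 0.14 (disuse over young), -3.24 to -1.92 (old over disuse), 3.57 to 5.61 (young serum over muscle) and -0.59 to 0.86 (old serum over muscle, where it passed the filter). For miR-204-5p it gave -0.43 to 0.34 (old over disuse) and -0.74 to 0.23 (old serum over muscle). miR-204-5p was -0.37 in disuse over young serum when thinned, and 1.41 with library totals and 1.59 thinned in young serum over muscle. The share differed by 1.24 percentage points between old and young muscle. Its adjusted exact permutation p was 0.0476 over a family of 4 that also held disuse serum against disuse muscle, whose serum values chose the pair, and 0.0714 over the 3 muscle comparisons. As a log2 ratio the difference was 1.06 (adjusted exact permutation p = 0.0635 over the 4), and on leaving out single libraries 0.99 to 1.5 percentage points (0.0317 to 0.0952 over the 4).

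No label states whether equal replicate numbers mark paired samples. In no comparison did every same-numbered pair deviate together (r = -0.10 to 0.14 between old and young muscle, and -0.26 to 0.55 between old and young serum). This does not exclude pairing. With the numbers as a replicate block, 18 miRNAs passed between old and young muscle, 14 between old and disuse muscle and 162 between disuse serum and muscle, and miR-211-5p was 1.07 in old over young muscle (edgeR adjusted p = 0.200). The block changed no call of the pair. miR-211-5p rests on 10 counts in old serum and 32 in young muscle.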
